A study of Bos taurus with 9 samples.

Results

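Regulators of stored maternal mRNA were followed in metaphase II oocytes of cattle, which are eggs arrested until fertilization. The genes are CPEB1, PABPC1L, ZAR1, ZAR1L, YBX2, LSM14B, DDX6, EIF4ENIF1, EIF4E1B and DAZL. They were taken by symbol and make up 10 of the 17852 genes in the deposited table, and all 10 passed the filter on low counts, which left 13206 genes. Oocytes exposed to microplastics and given taurine, an amino sulfonic acid, oocytes exposed to microplastics alone, and control oocytes were represented by 3 libraries each. The first 2 of these groups both carry the microplastics exposure, and no group received taurine alone. Dose, exposure time, particle type and the number of oocytes pooled are not given in the labels. Nor do the labels state whether replicate libraries are separate animals or cultures. The p-values therefore rest on the spread between libraries alone, which may be technical.

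A growing mammalian oocyte makes and stores mRNA that it translates only later, when transcription is silent during meiotic maturation. Stored messages are held with short poly(A) tails in protein particles, in which the cap is kept from the initiation machinery. At maturation, proteins bound to the 3′ untranslated region recruit a cytoplasmic poly(A) polymerase, tails lengthen, and poly(A)-binding proteins help start translation. CPEB1 binds the cytoplasmic polyadenylation element of such messages and DAZL is a germ cell RNA-binding protein that promotes translation. PABPC1L is the poly(A)-binding protein of oocytes and early embryos. ZAR1 and ZAR1L are zinc finger RNA-binding proteins of oocytes, which in the mouse bind and protect maternal mRNA. YBX2 is the Y-box protein of germ cells, LSM14B and the helicase DDX6 belong to storage particles, EIF4ENIF1 binds the cap-binding protein eIF4E and represses translation, and EIF4E1B is an oocyte relative of eIF4E known in frog oocytes from a repressive complex with CPEB.

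Libraries held 21.17 to 22.74 M estimated reads, and a floor of 3 counts in a library corresponded to 0.132 to 0.142 CPM (counts scaled to the library total). The 11 oocyte markers listed were all detected. Their summed level was 76930.4 to 102726 CPM with microplastics and taurine, 34979 to 42587 CPM with microplastics alone and 82339.8 to 110520.2 CPM in control, and 6 of the 11 fell and 1 rose in microplastics against control. Of 16 cumulus and granulosa markers, 15 were in the table, at summed levels of 521 to 568, 421 to 523 and 511 to 615 CPM in the same order of groups, and 5 of the 13 tested fell in microplastics against control while 4 rose with taurine against microplastics alone. Over the 9 libraries STAR ran from 223 to 382 CPM, HAS2 from 72.0 to 137 CPM and VCAN from 28.0 to 54.0 CPM. FSHR was at 0 in 8 of these libraries, and CYP19A1, HSD3B1 and AMHR2 reached at most 1.04, 0.83 and 0.22 CPM. TNFAIP6 had 66.1 CPM in control 2, 33.3 CPM in taurine 3 and 0.038 to 1.53 CPM in the other libraries. The part of cumulus and granulosa cells in the results was not tested. In bulk samples, fewer cells of a type and less RNA per cell cannot be told apart. The libraries control 3 and taurine 3 stood apart from their groups: control 3 correlated at 0.976 with taurine 1 and with taurine 2 on the log2 CPM scale, against 0.962 and 0.964 with control 1 and control 2, and taurine 3 correlated best with control 2, at 0.977. Their labels were used as given. Whether the 2 labels are right could not be settled from the files, and the control and taurine means, SDs and calls depend on them. Values of the regulators that moved most without these libraries are given beside the results. Both libraries were singled out in these same data, and leaving them out can narrow the spread within groups. The p-values and counts of fits without them may therefore overstate differences. They show only how far the results depend on these libraries.

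The 10 regulators covered a wide range of abundance. TPM values, which are scaled for transcript length, allow genes to be compared. ZAR1L was the most abundant regulator in each group, with 1204 ± 134 TPM with microplastics and taurine, 1357 ± 142 with microplastics and 901 ± 267 in control (SD, n = 3 each here and below), and it ranked 125th, 105th and 174th of 17852 genes by mean TPM. CPEB1 came next, with 710.5 ± 286, 782 ± 153 and 485 ± 87.7 TPM in the same order of groups. EIF4E1B was the third, with 178 ± 84.2 TPM with microplastics and taurine, 449 ± 56.8 with microplastics and 138 ± 95.5 in control. EIF4ENIF1, ZAR1, YBX2, DAZL and LSM14B followed, with means over 9 libraries of 122, 92.9, 86.5, 59.8 and 32.5 TPM, and in that order ZAR1 and YBX2 differed by less than their spread between libraries. DDX6 and PABPC1L were the least abundant, with 8.59 and 6.42 TPM over all libraries. PABPC1L had 12.1 ± 1.38 TPM and DDX6 10.4 ± 1.78 TPM in microplastics oocytes, whereas in control DDX6 had 9.02 ± 0.294 TPM and PABPC1L 3.17 ± 1.24 TPM. The 10 genes together summed to 2192, 2717 and 2344 TPM with microplastics and taurine, to 2949, 3227 and 3472 TPM with microplastics and to 1412, 1751 and 2230 TPM in control. TPM carries no correction for composition, and on the log2(TPM + 1) scale the median of all tested genes was 0.42 higher in microplastics than in control.

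**Figure D1:**
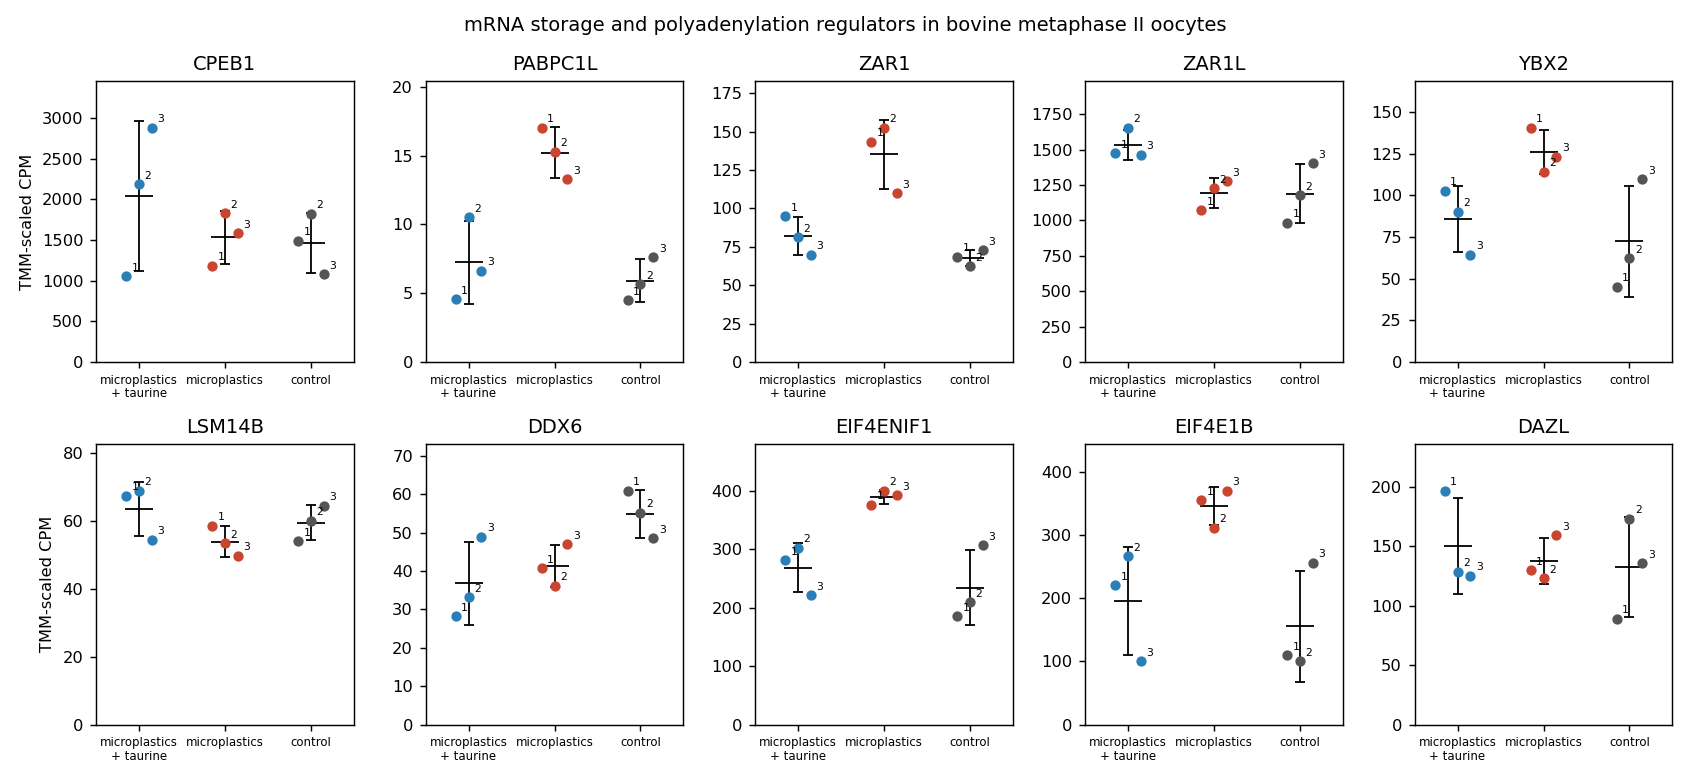
Each panel plots one regulator, with TMM-scaled CPM on a linear axis from 0. Points are libraries numbered within their group, and the bar and whiskers are the mean and SD of 3 libraries. The 3 microplastics libraries of PABPC1L, at 13.3 to 17.0 CPM, sit above all control and taurine libraries, while those of ZAR1L, LSM14B and DAZL lie among or below them.

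Exposure to microplastics was set against control first, to ask what the exposure changed in these genes. The regulators that rose were PABPC1L, ZAR1, EIF4ENIF1 and EIF4E1B, none fell by edgeR, DESeq2 or limma-voom, and 6 did not pass edgeR's test (CPEB1, ZAR1L, YBX2, LSM14B, DDX6 and DAZL). The 4 rises of 10 stand beside 9.68% of all tested genes called higher, and the 0 falls beside 14.7% called lower. With an unadjusted p under 0.05 there were 5 of 10, beside 38.1% of all tested genes. The libraries of the 2 groups did not overlap for 5 regulators that were higher with microplastics, against 22.4% of all tested genes, and for 1 that was lower, against 22.5% (44.9% in either direction). The median log2 fold change of the regulators was 0.40, and that of all genes tested was 0.04.

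PABPC1L, the oocyte poly(A)-binding protein, had 17.0, 15.3 and 13.3 CPM with microplastics and 4.47, 5.66 and 7.63 CPM in control. All 3 exposed libraries lay above all 3 controls, with control 3 the highest of its group. The log2 fold change was 1.36 ± 0.32 (SE), a 2.56-fold rise (edgeR quasi-likelihood, adjusted p = 0.0101). With microplastics and taurine PABPC1L stood at 4.56, 10.5 and 6.62 CPM, below every library of microplastics alone. That fall was of 1.07 on the log2 scale (SE 0.32, edgeR adjusted p = 0.0409). Its call was lost without taurine 1 (-0.82), taurine 3 (-1.01), microplastics 1 (-1.0), microplastics 2 (-1.08), microplastics 3 (-1.175) or control 2 (-1.07). It was also lost without control 3 and taurine 3 both (-1.02), with replicate number added to the fit (-1.14) and with transcripts tested one by one (-1.07). The PABPC1L call in microplastics against control held under all 22 alternatives run, at 1.60 without control 3.

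The somatic relative PABPC1 had 331, 319 and 243 CPM with microplastics and 241, 281 and 221 CPM in control, and it did not pass the test (log2 0.27 ± 0.17, edgeR adjusted p = 0.275). It passed with scaling by library size only (0.75, edgeR adjusted p = 0.00773) and on log2(TPM + 1) values (0.865, limma adjusted p = 0.00417). The medians of all tested genes under these were 0.52 and 0.42. Within a library, PABPC1L came to 0.0229, 0.0605 and 0.0409 of PABPC1 in TPM with microplastics and taurine, to 0.0726, 0.0676 and 0.0771 with microplastics, and to 0.0262, 0.0284 and 0.0487 in control. This ratio needs no scaling between libraries, and its microplastics values lay above all others. An exact permutation test of 3 libraries against 3 cannot go below a two-sided p of 0.1, which is the p reached here for microplastics against control (adjusted p = 0.3 over 12 ratio comparisons). PABPC1 has processed copies in mammalian genomes, so its counts are uncertain.

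Of the zinc finger pair, ZAR1 passed edgeR's test and ZAR1L did not. ZAR1 had 143, 153 and 109.8 CPM with microplastics and 68.5, 62.3 and 72.7 CPM in control, so the groups were well apart. The log2 fold change was 1.00 ± 0.18, a 1.99-fold rise (edgeR adjusted p = 0.00276), and this call held under all 22 alternatives run. In oocytes given taurine as well, ZAR1 had 95.1, 81.5 and 69.9 CPM, below all libraries of microplastics alone, and fell by 0.72 on the log2 scale against them (SE 0.18, edgeR adjusted p = 0.022). That call was lost without taurine 2 (-0.71), taurine 3 (-0.61), microplastics 1 (-0.69) or microplastics 2 (-0.64).

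ZAR1L had 1071, 1227 and 1276 CPM with microplastics and 984, 1176 and 1402 CPM in control, and the groups overlapped. Its log2 fold change was 0.00 with an approximate 95% interval of -0.32 to 0.33, an interval that does not reach the change estimated for ZAR1. The difference between the fold changes of the pair was not tested. On log2(TPM + 1) values ZAR1L was 0.63 higher with microplastics and passed (limma adjusted p = 0.0264). The median of all tested genes was 0.42 higher on that scale. With taurine ZAR1L had 1475, 1654 and 1463 CPM, above all libraries of both other groups, at log2 0.36 ± 0.17 against microplastics alone (edgeR adjusted p = 0.169) and 0.37 ± 0.17 against control (edgeR adjusted p = 0.855). In TPM, ZAR1L exceeded ZAR1 by a factor of 18.3 ± 2.87 with microplastics and taurine, 8.74 ± 2.17 with microplastics and 16.9 ± 2.63 in control. The microplastics ratios, 7.21 to 11.2, lay below all others. In the reference gene table the span of ZAR1 overlaps that of FRYL and the span of ZAR1L that of FRY. The labels do not say whether counting used strand, so reads in the shared stretch could belong to either gene. FRYL averaged 87.9, 70.8 and 102.7 CPM and FRY 39.0, 57.1 and 46.5 CPM with microplastics and taurine, with microplastics and in control.

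YBX2, the germ cell Y-box protein, had 141, 114 and 123 CPM with microplastics and 45.1, 62.3 and 109.7 CPM in control. The groups did not overlap, and control 3 came within a few CPM of the lowest exposed library. Its log2 fold change of 0.80 ± 0.29 did not pass (edgeR adjusted p = 0.0626). Without control 3 it was 1.245 and passed (edgeR adjusted p = 0.00325), and without taurine 3 it was 0.80 and passed (edgeR adjusted p = 0.043). It also passed with control 3 and taurine 3 both left out (edgeR adjusted p = 0.000493) and by the Wald test of DESeq2 (0.78, adjusted p = 0.0359). With microplastics and taurine it had 103, 90.2 and 64.3 CPM, below all microplastics libraries, at log2 -0.55 ± 0.29 against them (edgeR adjusted p = 0.224).

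YBX1, the widely expressed Y-box protein, was also high in control 3 and low in taurine 3, with 1122, 706 and 265 CPM with microplastics and taurine, 854, 867 and 1012 CPM with microplastics, and 257, 324 and 698 CPM in control. Its log2 fold change of 1.10 ± 0.46 in microplastics against control did not pass (edgeR adjusted p = 0.108), and it passed without control 3 (1.67, edgeR adjusted p = 0.0273), without taurine 3 (1.09, edgeR adjusted p = 0.0294) and without both (1.67, edgeR adjusted p = 0.000108). YBX2 stood at 0.150 ± 0.0770 of YBX1 in TPM with microplastics and taurine, 0.136 ± 0.0218 with microplastics and 0.171 ± 0.0172 in control, and these ratios overlapped between all groups. YBX1 also has processed copies, and its counts are uncertain.

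EIF4ENIF1, the repressor that binds eIF4E, had 375, 400.0 and 392 CPM with microplastics and 186, 209 and 307 CPM in control. The exposed libraries lay close together and above all controls, of which control 3 was the highest. The log2 fold change was 0.73 ± 0.20, a 1.66-fold rise (edgeR adjusted p = 0.021). The call was lost without microplastics 1 (0.775), microplastics 2 (0.73), microplastics 3 (0.74), control 1 (0.59) or control 2 (0.66), and without control 3 the value was 0.995 (edgeR adjusted p = 0.00275). With taurine it had 281, 302 and 221 CPM, again below every library of microplastics alone, at log2 -0.54 ± 0.20 against them (edgeR adjusted p = 0.0956), which passed without control 3 (-0.55, edgeR adjusted p = 0.0375). Of its 7 transcripts in the table, 1 held 77.7% to 90.4% of its TPM in each library. That transcript alone rose by log2 0.73 ± 0.18 in microplastics against control (edgeR over transcripts, adjusted p = 0.0286).

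EIF4E1B, the oocyte cap-binding protein, had 355, 311 and 370.2 CPM with microplastics and 109, 101 and 256 CPM in control. The groups did not overlap, but control 3 lay nearer to the exposed libraries than to the other controls. The log2 fold change was 1.15 ± 0.38, a 2.22-fold rise just past the threshold (edgeR adjusted p = 0.0479). The call was lost without microplastics 1 (1.15), microplastics 2 (1.235), microplastics 3 (1.115), control 1 (0.95), control 2 (0.92) or taurine 1 (1.15). It was also lost with no filter on low counts (1.16) and with replicate number added to the fit (1.19). Of its 2 transcripts in the table, 1 held 97.7% to 99.7% of its TPM in each library. That transcript alone did not pass (log2 1.16 ± 0.43, edgeR over transcripts, adjusted p = 0.104). Without control 3 the log2 fold change was 1.735 (edgeR adjusted p = 0.00325), over 1.5 times that with all libraries. With taurine EIF4E1B had 220.0, 267 and 100.3 CPM, below all libraries of microplastics alone, at log2 -0.82 ± 0.38 against them (edgeR adjusted p = 0.18). Without taurine 3 this was -0.50 (edgeR adjusted p = 0.411), and without control 3 it was -0.83 (edgeR adjusted p = 0.0661). Taurine 3 lay just below control 1 and control 2, and control 3 lay between taurine 1 and taurine 2.

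EIF4E, the widely expressed cap-binding protein that starts most translation, moved the other way. It had 578, 476 and 458 CPM with microplastics and 1924, 1746 and 1512 CPM in control, a fall of 1.78 on the log2 scale (SE 0.17, edgeR adjusted p = 3.95e-05). With microplastics and taurine it had 1246, 1143 and 1379.7 CPM, a log2 rise of 1.32 ± 0.16 against microplastics alone (edgeR adjusted p = 0.00038), and below all 3 controls (log2 -0.46 ± 0.16, edgeR adjusted p = 0.855). Control 3 and taurine 3 were on their own groups' side for this gene. Both calls held under all 21 alternatives run for it.

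The ratio of EIF4E1B to EIF4E in TPM was 0.219, 0.289 and 0.0902 with microplastics and taurine, 0.761, 0.812 and 1.00 with microplastics, and 0.0704, 0.0714 and 0.210 in control. All 3 microplastics ratios lay above the other 6, and the taurine and control ratios overlapped. On the log2 scale the ratio was 3.07 higher in microplastics than in control and 2.26 lower with taurine added than with microplastics alone. Each has a two-sided exact permutation p of 0.1, the smallest that 3 against 3 libraries allow (adjusted p = 0.3 over 12 comparisons). EIF4E also has copies elsewhere in mammalian genomes, so its counts are uncertain.

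**Figure D2:**
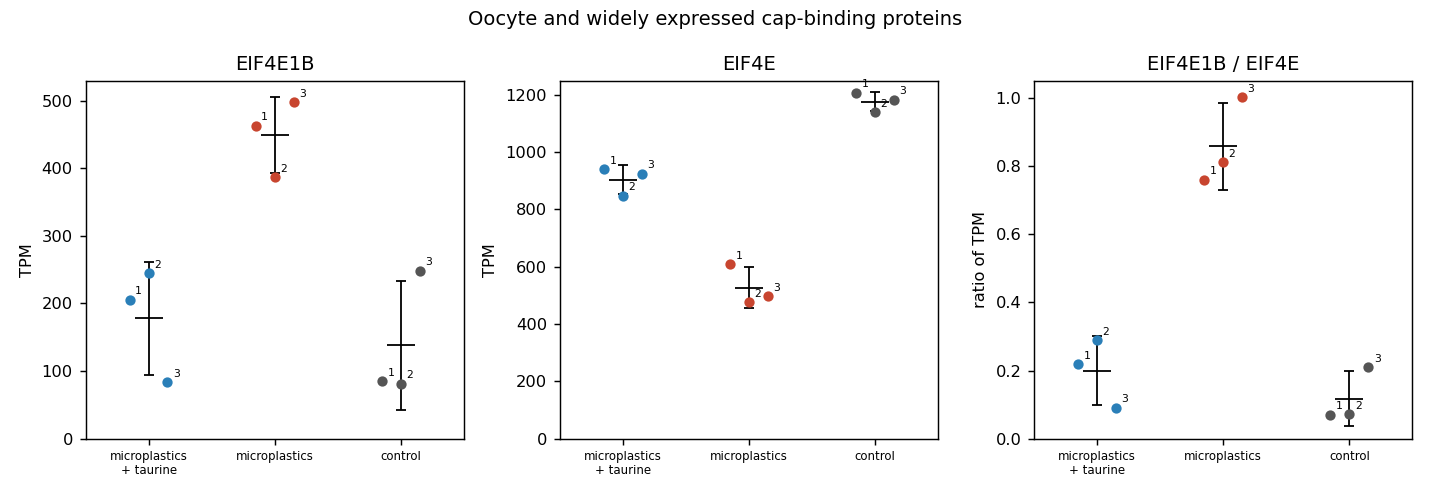
The left and middle panels plot TPM of EIF4E1B and EIF4E in each library, and the right panel their ratio, on linear axes from 0, with mean and SD of 3 libraries. EIF4E1B is highest and EIF4E lowest in the microplastics libraries, where the ratio is 0.761 to 1.00 against at most 0.289 elsewhere.

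LSM14B and DDX6, both of storage particles, did not pass. LSM14B was the steadiest of the 10 genes, its highest library being 1.39 times its lowest. It had 58.6, 53.4 and 49.7 CPM with microplastics and 54.0, 60.0 and 64.4 CPM in control (log2 -0.14, approximate 95% interval -0.47 to 0.19). Its paralog LSM14A did not pass either (log2 -0.25 ± 0.20, edgeR adjusted p = 0.391), and LSM14B stood at 1.04 ± 0.248 of LSM14A in TPM with microplastics and 0.936 ± 0.0635 in control.

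DDX6 was the 1 regulator whose microplastics libraries all lay below the controls, with 40.7, 36.2 and 47.0 CPM against 61.0, 55.2 and 48.5 CPM (log2 -0.41 ± 0.22, edgeR adjusted p = 0.188). It passed with the trend of fold change on transcript length removed (-0.69, edgeR adjusted p = 0.0491). With taurine it had 28.2, 33.2 and 49.0 CPM, so 2 of its 3 taurine libraries lay below all microplastics libraries, and taurine 3 lay just above control 3. In the reference gene table its span overlaps a further annotated locus. When libraries were scaled by their totals alone, the median over tested genes in microplastics against control was 0.52 in place of 0.04, and the signs of LSM14B (0.33) and DDX6 (0.08) turned. Less that median they were -0.18 and -0.44.

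CPEB1 and DAZL, which recruit stored messages to translation, did not differ between microplastics and control beyond their spread. CPEB1 had 1182, 1832 and 1583 CPM with microplastics and 1489, 1823 and 1081 CPM in control, with full overlap (log2 0.07, approximate 95% interval -0.56 to 0.69). With taurine it had 1058, 2189 and 2881 CPM, so taurine 3 held the highest level of all libraries and taurine 1 the lowest. Against microplastics alone the log2 fold change was 0.415 ± 0.32 (edgeR adjusted p = 0.416), and 0.085 without taurine 3. Of the 6 CPEB1 transcripts in the table, 3 carried nearly all of it, with 72.8% to 75.3%, 13.6% to 17.4% and 9.47% to 12.5% of its TPM, so the mix of its transcripts varied little while its level varied 2.72-fold.

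DAZL had 129.8, 123 and 159 CPM with microplastics and 88.9, 173 and 136 CPM in control (log2 0.05, approximate 95% interval -0.44 to 0.54). With taurine it had 197, 129 and 125 CPM, and taurine 1 was the highest of the 9 libraries. The intervals for CPEB1 and DAZL do not show that these genes were unaffected, since they hold changes of up to 0.69 and 0.54 on the log2 scale.

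**Figure D3:**
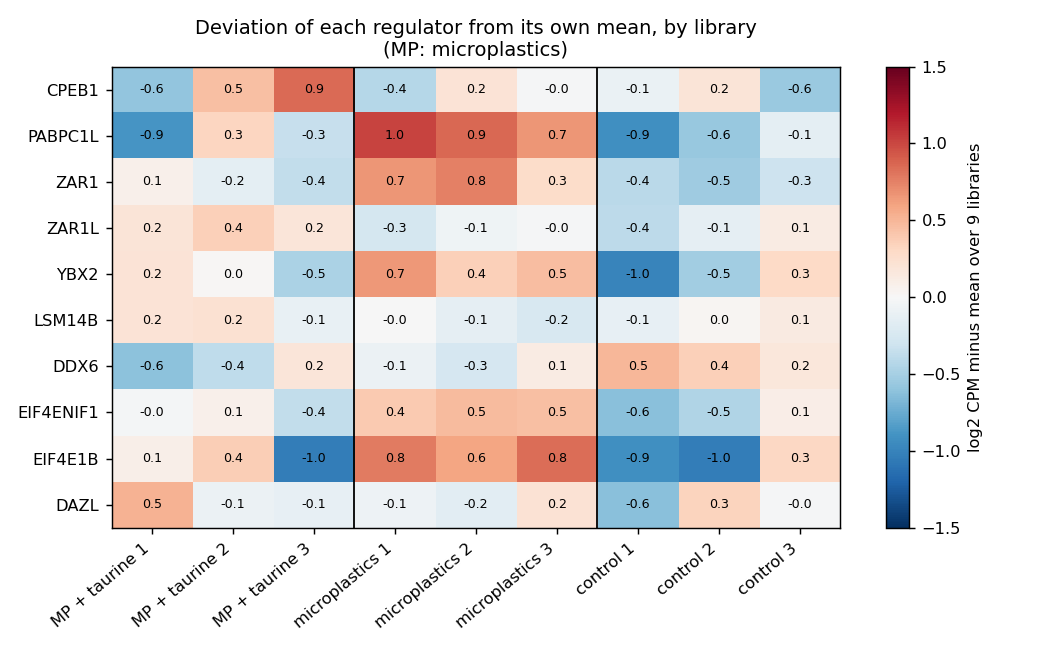
Each cell gives a regulator's log2 CPM in a library minus its mean over the 9 libraries, red above and blue below, with libraries grouped as microplastics and taurine, microplastics, and control. PABPC1L, ZAR1, YBX2, EIF4ENIF1 and EIF4E1B are above their mean in all 3 microplastics libraries, and control 3 and taurine 3 depart from their groups for YBX2 and EIF4E1B.

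Control 3 held the highest control value of 7 of the 10 regulators, beside 39.4% of all tested genes, and taurine 3 the lowest taurine value of 7, beside 37.8%. PABPC1L, ZAR1, YBX2, EIF4ENIF1 and EIF4E1B, 5 of 10, were higher in all 3 microplastics libraries than in all 6 others, beside 12.8% of all tested genes, and none was lower in all 3, beside 15.3%. Left without control 3 and taurine 3, the edgeR test called 5 of 10 regulators in microplastics against control, the 4 above and YBX2, all higher. In that fit 19.5% of the 13426 genes tested were called higher. With taurine against microplastics the same fit called 1 regulator lower, ZAR1 (-0.63, edgeR adjusted p = 0.0497), beside 4.15% of genes called lower.

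Taurine was then compared with microplastics alone, to ask what it changed in exposed oocytes. PABPC1L and ZAR1 fell, none rose by edgeR, DESeq2 or limma-voom, and 8 did not pass edgeR's test. These 2 of 10 stand beside 4.13% of all tested genes called lower, and the 0 rises beside 10.1% called higher. With an unadjusted p under 0.05 there were 4 of 10, beside 29% of all tested genes. For 5 of 10 regulators the taurine libraries lay wholly below the microplastics ones, beside 17.4% of tested genes. ZAR1L lay wholly above, beside 18.7% (36% in either direction). Those 5 were the same regulators that stood wholly above control with microplastics. Of the 2960 tested genes that did so, 1684 were likewise wholly above taurine. Taurine against microplastics shares the microplastics libraries with the first comparison, so the values of both are not independent. The median log2 fold change was -0.35 for the regulators and -0.02 for all genes.

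Against control, oocytes with microplastics and taurine showed 0 of 10 regulators called by edgeR, beside 0.00757% of all tested genes. The Wald test of DESeq2 and limma-voom called 0 as well, and 2 (ZAR1L and DDX6) had an unadjusted p under 0.05, beside 5.7% of all tested genes. ZAR1L was the 1 regulator whose taurine libraries all lay above the controls, and none had them all below, beside 4.59% and 4.57% of all tested genes (9.15% in either direction). The largest differences were DDX6 (log2 -0.58 ± 0.22, edgeR adjusted p = 0.855) and CPEB1 (0.48 ± 0.32, edgeR adjusted p = 0.855). The CPEB1 value was 0.148 without taurine 3 and -0.025 without control 3 and taurine 3. With control 3 and taurine 3 left out, 3 regulators passed, with YBX2 at 0.85 (edgeR adjusted p = 0.0374) and EIF4E1B at 1.22 (edgeR adjusted p = 0.00541) higher and DDX6 at -0.92 (edgeR adjusted p = 0.0274) lower than control. That fit called 783 genes in all (5.83% of those tested), against 1 with the 9 libraries. The libraries left out were picked for their likeness to the other group, which draws control and taurine apart. The calls of that fit are therefore no independent evidence of a difference.

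**Figure D4:**
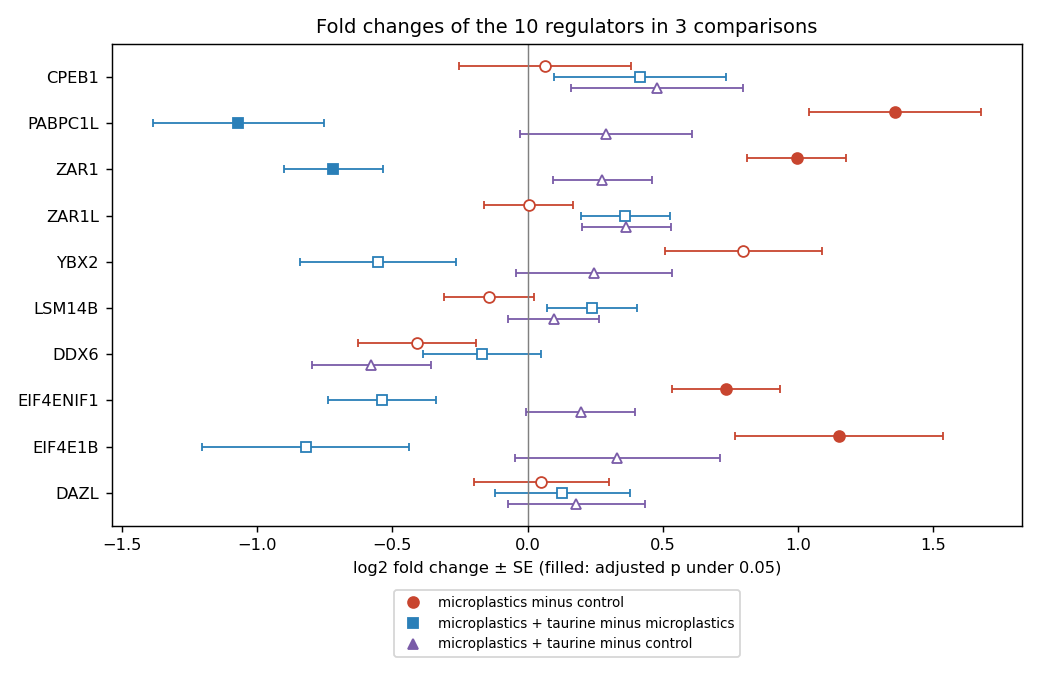
Log2 fold changes of the 10 regulators with SE in the 3 comparisons, filled where the adjusted p is under 0.05. PABPC1L, ZAR1, EIF4ENIF1 and EIF4E1B are filled to the right for microplastics minus control, and PABPC1L and ZAR1 to the left for microplastics and taurine minus microplastics.

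Genes with the pattern nearest to each risen regulator were sought among 8278 named genes with at least 5 CPM on average, by the root mean square difference of centred log2 CPM over the 9 libraries. Nearest to PABPC1L were NSD2 (0.185) and RNF220 (0.188), and nearest to ZAR1 were ZFP28 (0.136) and AKR7A2 (0.156). Nearest to EIF4ENIF1 were HOMEZ (0.086) and GDI2 (0.094), and nearest to EIF4E1B were CORO6 (0.145) and MAPK8IP3 (0.151). No other regulator of the 10 was among these. Only the nearest of 8278 genes are named, so this does not tell whether the regulators share a pattern.

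A list of 65 other genes of storage, polyadenylation and translational control places the regulators in their pathway. In microplastics against control 9 rose, 11 fell and 43 did not pass of the 63 tested, beside 9.68% and 14.7% of all tested genes called higher and lower (24.3% in all). Their median log2 fold change was 0.20. With taurine against microplastics alone 8 rose and 4 fell, beside 10.1% and 4.13% (14.2% in all), with a median of -0.12. Against control 0 of the 63 were called by edgeR in oocytes with microplastics and taurine, and 0 by DESeq2. An unadjusted p under 0.05 was reached by 3 of the 63, beside 5.7% of all tested genes.

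Of 14 genes of the polyadenylation machinery, 3 fell and 11 did not pass in microplastics against control, beside 14.7% of all tested genes called lower. TENT2, the cytoplasmic poly(A) polymerase that lengthens tails in oocytes, had 68.2, 80.2 and 74.7 CPM with microplastics and 189, 157 and 144 CPM in control. It fell by 1.14 on the log2 scale (SE 0.18, edgeR adjusted p = 0.00114), with no overlap. With taurine it had 128, 139 and 176 CPM and rose by 0.99 against microplastics alone (SE 0.18, edgeR adjusted p = 0.00374). Both TENT2 calls held under all 21 alternatives run. PAPOLA, the nuclear poly(A) polymerase, fell by 0.64, a call lost without taurine 2 (-0.64), microplastics 1 (-0.57), 2 (-0.59) or 3 (-0.72) or control 1 (-0.605) or 2 (-0.57) and with scaling by library size only (-0.15). PARN, a deadenylase that shortens tails, fell by 0.57, a call lost without microplastics 1 (-0.49) or 2 (-0.50) or control 1 (-0.47) or 2 (-0.52), and at -0.07 with scaling by library size only. CPEB2, CPEB3 and CPEB4, the other members of the CPEB family, were not called and averaged 15.1, 22.1 and 79.8 CPM with microplastics against 18.9, 21.3 and 75.4 CPM in control.

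Of 8 poly(A)-binding genes, 2 fell and 6 did not pass, beside the same 14.7% of all tested genes called lower. PABPN1L, an oocyte poly(A)-binding protein of maternal mRNA decay in the mouse, had 473, 339 and 279 CPM with microplastics and 964, 840.3 and 1294 CPM in control. It fell by 1.505 on the log2 scale (SE 0.26, edgeR adjusted p = 0.00171), a call that held under all 21 alternatives run. This was opposite in sign to the rise of PABPC1L. With taurine PABPN1L had 1216, 928 and 695 CPM and rose by 1.38 against microplastics alone (SE 0.26, edgeR adjusted p = 0.00418), a call not reached on log2(TPM + 1) values (0.84).

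Cap-binding and initiation genes moved in both directions, with 3 rises and 4 falls of 11, beside 9.68% and 14.7% of all tested genes. EIF4G1, the scaffold that joins cap-binding protein and helicase, had 20.6, 24.7 and 27.3 CPM with microplastics and 9.75, 10.9 and 13.3 CPM in control (log2 1.09 ± 0.23, edgeR adjusted p = 0.00526), and held under all 21 alternatives. EIF4E3, a further cap-binding relative, fell by 1.12 (SE 0.22, edgeR adjusted p = 0.00394), as EIF4E did, a call not reached on log2(TPM + 1) values (-0.43), and with taurine it rose by 0.96 (SE 0.22, edgeR adjusted p = 0.0127), which was lost without microplastics 2 (0.94) or microplastics 3 (0.84). The helicase EIF4A1 fell by 0.57 in microplastics, a call lost without microplastics 1 (-0.45) or 3 (-0.60) or control 2 (-0.57), and the value was -0.09 with scaling by library size only.

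Of 18 genes of mRNP storage and P-bodies 4 rose, 1 fell and 13 did not pass in microplastics against control. Of all tested genes 9.68% were called higher and 14.7% lower. With taurine against microplastics 18 of 18 did not pass edgeR's test, where 14.2% of all tested genes were called. An unadjusted p under 0.05 was reached by 5 of the 18, beside 29% of all tested genes. TNRC6B, a scaffold of microRNA silencing, had 110.1, 112 and 151 CPM with microplastics and 66.5, 70.3 and 72.9 CPM in control (log2 0.83 ± 0.18, edgeR adjusted p = 0.00668) and held under all 21 alternatives. Of 14 genes of germline translational control 12 were tested. In microplastics against control 2 rose and 1 fell, beside 9.68% and 14.7% of all tested genes. BOLL, the DAZ family relative of DAZL, had 19.2, 23.2 and 22.5 CPM with microplastics and 44.4, 41.5 and 43.1 CPM in control, a fall of 0.99 on the log2 scale (SE 0.17, edgeR adjusted p = 0.00173), whereas DAZL itself did not pass. The BOLL call was not reached on log2(TPM + 1) values (-0.37). NANOS1, an RNA-binding partner of Pumilio proteins, had 108, 129 and 125 CPM with taurine and 223, 236 and 189 CPM with microplastics alone, and fell by 0.84 (SE 0.17, edgeR adjusted p = 0.00609). Of the 18 other pathway genes named by rule for microplastics against control, 7 kept their call with each library left out in turn, namely TENT2, PABPN1L, EIF4G1, EIF4E, EIF4E3, TNRC6B and BOLL, and the other 11 did not.

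**Figure D5:**
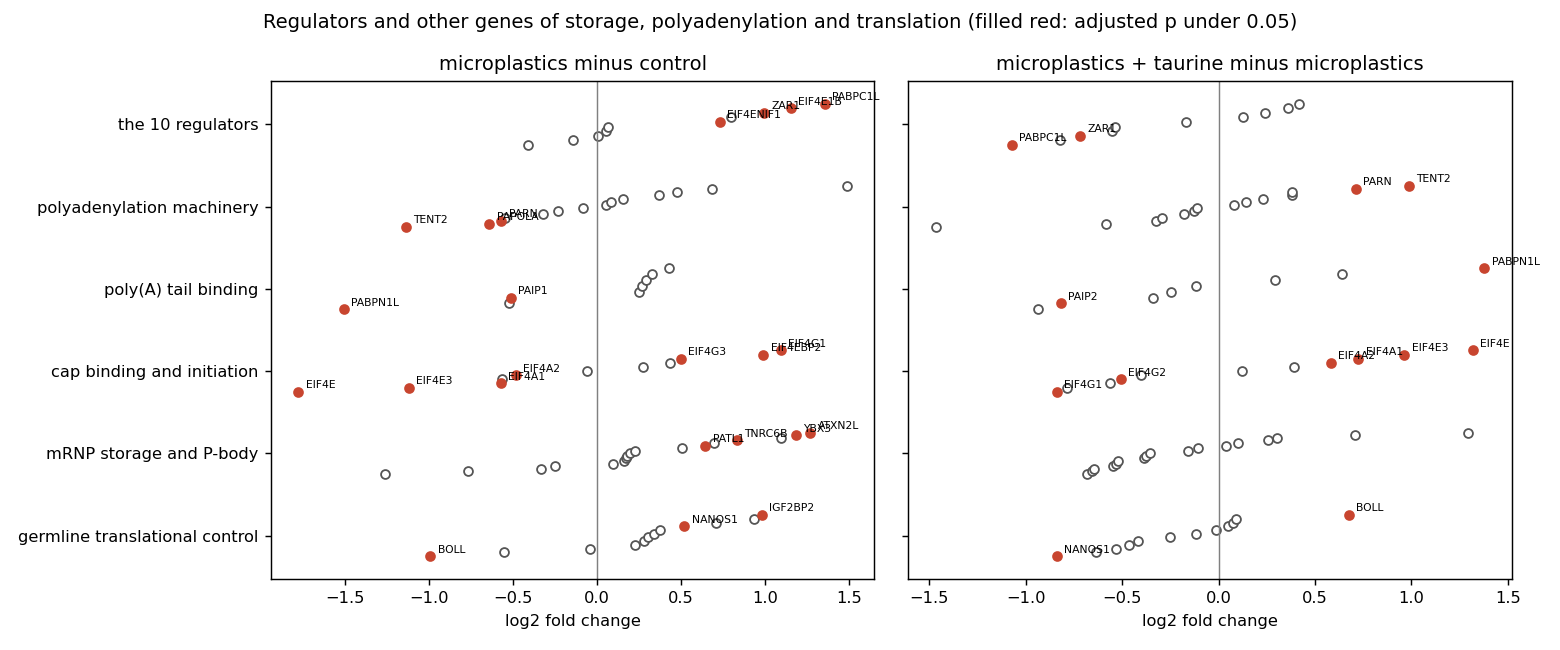
Log2 fold changes of the 10 regulators and of other tested pathway genes by list, one point a gene, filled red where the adjusted p is under 0.05. For microplastics minus control the filled points of the regulators lie to the right, those of polyadenylation machinery and poly(A) tail binding to the left, and cap binding has both. Of all tested genes 9.68% were called higher and 14.7% lower in that comparison.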

How the data were processed

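The authors deposited 1 table of 22590 transcripts with estimated counts, FPKM, TPM and a scaled signal for each library, per the file headers. The sources used here name no aligner, counting program, genome build or annotation. Library preparation followed the sequencing provider's standard protocol, per the labels. Deposited estimated counts (20.9% to 24.0% of values not whole) were summed per gene and rounded, and deposited TPM summed per gene. The FPKM the authors deposited served only for implied transcript lengths, and their scaled signal and group means were not used. Symbols came from the RefSeq gene table of ARS-UCD2.0, matched on gene ID (16995 of 17852 genes).

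Genes were tested with edgeR 4.0.16 in R 4.3.3 (quasi-likelihood, robust, TMM, filter at minimum count 10 and total 15, all 9 libraries, Benjamini-Hochberg over 13206 genes, threshold 0.05). CPM values are TMM-scaled, except the floor of 3 counts, which is scaled to the library total. SEs are the fold change over the root of the F statistic. The test was also run on simulated data. Alternatives used DESeq2 1.42.0 and limma 3.58.1. Floors and intervals cover counting error or library spread only, and no molecular identifiers were used here to correct for duplicate reads. Members, lists and the naming rule (all 10 regulators, up to 3 rising and 3 falling called genes per list, and the nearest paralogs) were chosen with earlier results of these data known. No sequence is shown, as none was in the sources used here. Among the other pathway genes, 1 is not reported here by name and is not plotted.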

Additional observations from a re-analysis of the deposited data

How the results depend on the processing

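Under the 22 alternatives run for each regulator, PABPC1L and ZAR1 kept their call in microplastics against control in all, and neither call of taurine against microplastics alone held in all. For every gene, 1 of the alternatives is a threshold of 0.1 on the same fit, which cannot lose a call. PABPC1L and ZAR1 have 1 transcript each in the table, so testing transcripts one by one used the same counts for them. With scaling by library size only, 4880 genes (4004 higher), 32 other pathway genes (27 higher) were called in microplastics against control, and 3089 genes (601 higher), 4 regulators and 25 other pathway genes (3 higher) with taurine against microplastics. On log2(TPM + 1) values these were 6042 genes (5342 higher) and 38 pathway genes (35 higher), then 4370 genes (509 higher), 6 regulators and 31 pathway genes (2 higher). Deviations of same-numbered libraries correlated at -0.441 to 0.261, and those of differently numbered libraries of 2 groups at -0.306 to 0.392. No pairing by replicate number was seen, but 3 libraries a group are too few to exclude it. The -0.441 belongs to control 3 and taurine 3, whose labels could not be settled. With the replicate block, 2417 genes in all and 11 other pathway genes were called in microplastics against control. With taurine against microplastics it called 1293 genes in all, 1 regulator and 7 pathway genes. The main fit called 3213 and 1878 genes in these comparisons. The block left 0 genes called with taurine against control. In that last comparison the 1 called gene became 5 by the Wald test of DESeq2 and 0 with limma-voom, with a filter of 5 CPM in 3 libraries, with log2(TPM + 1) and with only the groups compared. Without control 3 and taurine 3 the counts were 5110 genes in microplastics against control. They were 1777 genes and 1 regulator with taurine against microplastics, and 783 genes, 3 regulators and 7 pathway genes with taurine against control.

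With 1 library left out, counts in microplastics against control ran from 1715 to 4151 genes, 2 to 5 regulators and 8 to 24 other pathway genes. With taurine against microplastics they ran from 888 to 2146, 0 to 3 and 5 to 12, and with taurine against control from 0 to 2 genes.

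Signs turned only for genes that were not called, except PARN (0.048), PAIP1 (0.10) and EIF4A1 (0.033) on log2(TPM + 1) values. On that scale and with scaling by library size only, in that order, values in microplastics against control were 0.455 and 0.33 for LSM14B, 0.18 and 0.081 for DDX6 and 0.34 and 0.23 for LSM14A. With taurine against microplastics they were -0.21 and -0.041 for CPEB1, -0.17 and -0.067 for ZAR1L, -0.29 and -0.19 for LSM14B, -0.42 and -0.29 for DAZL and -0.26 and -0.17 for LSM14A. ZAR1L in microplastics against control was -0.025 with DESeq2 size factors and -0.022 by its Wald test. With the length trend removed CPEB1 was -0.12 and DAZL -0.10 in microplastics against control, and DDX6 0.11 with taurine against microplastics. Without control 3 and taurine 3 CPEB1 was -0.10 in microplastics and -0.025 with taurine, both against control. Signs also turned with 1 library left out, with ranges of -0.10 to 0.25 for CPEB1, -0.115 to 0.16 for ZAR1L and -0.17 to 0.29 for DAZL in microplastics against control, -0.11 to 0.25 for DAZL and -0.91 to 0.006 for YBX1 with taurine against microplastics, and -0.086 to 0.53 for PABPC1L, -0.064 to 0.42 for DAZL and -0.003 to 0.68 for YBX2 with taurine against control. The cause was not tested.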
